A study of Mus musculus with 16 samples.

Results

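Genes of steroid hormone and prolactin signaling were followed through the cells of the pubertal mouse mammary gland: Esr1, Pgr, Prlr, Cited1, Greb1, Tnfsf11 and Stat5a. They were chosen by name, 7 of the 17721 genes of a count table, and all have a row in it. The table holds UMI counts (a UMI is a molecular tag, counted once per captured mRNA) of 1419 single cells from 16 dissected fragments of mammary glands of C57BL/6 females 5 weeks old. Each fragment was 1 structure: 4 nipples, 6 ducts and 6 terminal end buds (TEBs, the growing tips of the ducts). All mice were untreated and carried K14-Cre, which is active in keratin 14-expressing epithelium, together with the R26-mTmG fluorescent reporter, so no group differs from another by genotype. The labels do not tie fragments to mice, and p-values therefore measure the spread between fragments, some of which may come from 1 animal.

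Estrogen and progesterone act in the mammary epithelium through a subset of luminal cells that carry their receptors. These cells answer with secreted signals, such as amphiregulin (encoded by Areg) and RANKL (encoded by Tnfsf11), that act on neighboring receptor-negative cells. Prolactin binds the receptor encoded by Prlr, which signals through the kinase JAK2 to STAT5 transcription factors. Pubertal growth of the ducts depends on estrogen, while progesterone and prolactin are best known for side branching and alveolar growth in the mature and pregnant gland.

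The members differ in role. Esr1 encodes estrogen receptor alpha and Pgr the progesterone receptor, both nuclear receptors that bind DNA. Cited1 encodes a transcriptional cofactor that binds estrogen receptor alpha. Greb1 is a classical estrogen target, and its product is a cofactor of the receptor. In the GENCODE annotation of GRCm38 all 7 are protein coding: Esr1 lies at chr10:4611593-5005614, Pgr at chr9:8899833-8968611, Prlr at chr15:10177238-10349180, Stat5a at chr11:100859351-100885169 (all on the plus strand), Greb1 at chr12:16670615-16800886, Tnfsf11 at chr14:78277445-78308043 and Cited1 at chrX:102247381-102252181 (minus strand).

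The sequence before the annotated starts of the members was searched for the motifs through which this pathway binds DNA, to show what the members have in common beyond their names. RefSeq (GRCm38.p6) gives 14 start sites for the 7 genes, and the 250 bases before each were read on both strands. The full palindromic estrogen response element was in 0 of these 14 windows and in 0.0639% of the 32851 windows of all genes. The estrogen receptor motif AGGTCA, whose last bases are also one arm of the full element, was in 4 of 14 windows (Stat5a at a pair of starts, Greb1 and Cited1) against 14% of all windows. The STAT5 motif TTCNNNGAA was in 2 of 14 (Esr1 and Prlr) against 7.02%. The FOXA motif TGTTTAC (1 window, Prlr, against 3.17%), the progesterone receptor motif ACANNNTGT (1 window, Greb1, against 5.84%) and the GATA motif AGATAAG (0 windows against 2.74%) were also searched. The windows below show the STAT5 and AGGTCA matches in capitals with 8 bases on either side, 5′ to 3′ on the strand of the gene (TGACCT is AGGTCA read on the other strand), since Prlr, Esr1, Cited1 and Greb1 are the genes the results turn on.
Prlr, chr15:10223788-10223812: aaaatgagTTCTAGGAAtaagggat
Esr1, chr10:4709962-4709986: ggagtttcTTCTAGGAAtgctgatt
Cited1, chrX:102250980-102251001: taacgttgTGACCTtgggttaa
Greb1, chr12:16800961-16800982: gcaacaaaTGACCTctgtcccc
The letters in capitals are matches of text and were not tested for binding, and a window without a match says nothing about the factor.

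After the limits of the study on spike-ins, UMIs and genes, 1317 cells were left (342 from nipples, 501 from ducts and 474 from TEBs). Before these limits, fragments held 1856141 to 5233122 UMIs, with spike-ins counted. Cells were clustered without the 7 genes among the variable genes and named by marker lists without them. The classes held 426 ER+ luminal-like, 178 ER- luminal-like, 294 basal-like, 252 fibroblast-like and 78 myeloid-like cells, and 89 cells stayed unnamed. ER+ luminal-like cells had Foxa1 at 117 CPM (the UMIs of a gene, scaled by the total UMIs of the summed cells) and Areg at 2283, against 11.3 and 82.0 in ER- luminal-like cells, which had Kit at 123 and Elf5 at 43.5 CPM. When the 7 genes were allowed among the variable genes, 3 of them were chosen, and all 1317 cells kept their class. For levels, UMIs were summed over the cells of a class in a fragment with at least 5 such cells. Areg and Cited1 UMIs were seen in cells of every class. The UMIs that RNA shared between the wells of a fragment would give were therefore estimated from markers of other classes, and stand below beside the measured UMIs.

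Esr1, Pgr, Prlr, Cited1 and Stat5a, 5 of the 7 genes, had their highest level in ER+ luminal-like cells (the plot of levels by class). These levels are a description of clusters, with no test. Cited1 stood highest, at 1749 ± 441 CPM (SD, n = 16 fragments) in ER+ luminal-like cells, against 55.2 ± 62.01 in ER- luminal-like (n = 14), 54.6 ± 52.02 in basal-like (n = 16), 37.5 ± 43.1 in fibroblast-like (n = 13) and 39.2 ± 32.2 in myeloid-like cells (n = 7). Prlr followed at 915 ± 107 CPM in ER+ luminal-like cells, and its next level was 35.5 ± 23.2 in ER- luminal-like cells. Every fragment with both classes had more Cited1 and more Prlr in its ER+ luminal-like cells than in its ER- luminal-like cells (14 of 14), basal-like cells (16 of 16), fibroblast-like cells (13 of 13) and myeloid-like cells (7 of 7).

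Pgr and Stat5a had the same class on top. Pgr was at 123 ± 29.9 CPM in ER+ luminal-like cells and at 1.68 ± 3.12 in ER- luminal-like, 6.00 ± 10.7 in basal-like, 7.01 ± 11.1 in fibroblast-like and 1.94 ± 2.46 in myeloid-like cells. The other 4 classes did not differ beyond the spread of their fragments. Stat5a was at 141 ± 35.3 CPM in ER+ luminal-like cells and at 16.4 ± 11.5 to 31.5 ± 30.1 in the other classes, again with overlapping spreads among these. For Pgr and Stat5a too, ER+ luminal-like cells were the highest in every fragment where they could be compared with another class. As levels here come from the 3' ends of transcripts, CPM of different genes stand beside each other without a correction for length.

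**Figure D1:**
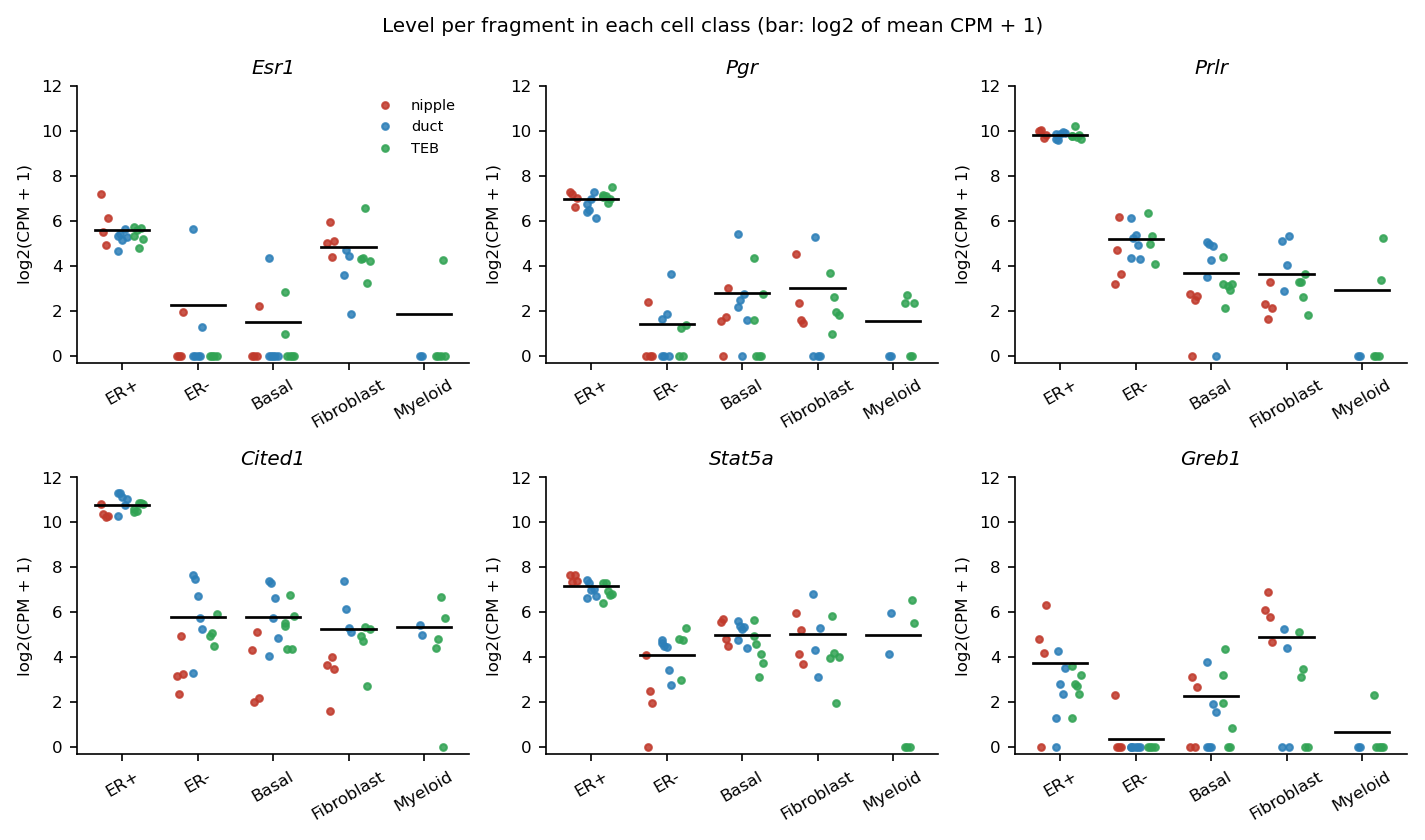
Level of 6 genes in 5 cell classes, as log2(CPM + 1) of the summed UMIs of a class in 1 fragment (points, red for nipple, blue for duct and green for TEB), with a bar at the mean CPM over fragments. Esr1, Pgr, Prlr, Cited1 and Stat5a are highest in ER+ luminal-like cells, while Greb1 has its highest mean in fibroblast-like cells.

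Esr1 did not separate the classes in the same way. It was at 47.8 ± 27.8 CPM in ER+ luminal-like cells and at 27.9 ± 24.5 in fibroblast-like cells, 2 levels that do not differ beyond their spread, although 11 of 13 fragments had the higher value in ER+ luminal-like cells. Fibroblast-like cells held 316 Esr1 UMIs, where RNA of other wells would give 16.8. In ER- luminal-like cells 12 of 14 fragments had at most 1.44 CPM, N24 had 2.87 and D31 had 49.2. Of the 25 UMIs in the class, 23 came from 1 cell of D31. Basal-like cells held 12 UMIs in 294 cells, fewer than the 23.9 that RNA of other wells would give, so that Esr1 was not told apart from such RNA there.

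Greb1 was the exception. Its mean was 28.9 ± 34.9 CPM in fibroblast-like cells and 12.6 ± 19.4 in ER+ luminal-like cells, and only 4 of 13 fragments had the higher value in ER+ luminal-like cells. The 362 Greb1 UMIs of fibroblast-like cells compare with 13.1 that RNA of other wells would give. Basal-like cells had 3.90 ± 5.72 CPM, and ER- luminal-like and myeloid-like cells had 1 UMI each. Tnfsf11 had 2 UMIs in ER+ luminal-like cells, both in N21, and 1 in fibroblast-like cells, and none in the ER- luminal-like, basal-like and myeloid-like sums. It was therefore close to the limit of detection in all named classes and did not pass the filter on low counts in any of them.

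The low levels differed in how they stood to RNA of other wells. In basal-like cells the 101 Prlr and 433 Cited1 UMIs were below the 413 and 983 that RNA of other wells would give. An estimate larger than the whole count is too high, so these levels are not told apart from background. How much of them is RNA of other wells was not tested. Stat5a in basal-like cells was at 266 UMIs, above the 75.5 estimated, and Stat5a in fibroblast-like cells at 276 against 44.2. In ER- luminal-like cells Prlr was at 190.0 UMIs against 141 and Cited1 at 328 against 365. In ER+ luminal-like cells the estimates were small beside the counts, with 37.2 of 752 UMIs for Esr1, 87.0 of 2077 for Pgr, 635 of 15607 for Prlr and 1558 of 30644 for Cited1.

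The border of the ER- luminal-like class mattered for its levels. At a clustering resolution of 1, where 205 cells were ER- luminal-like and 398 ER+ luminal-like, mean Prlr there was 178 CPM, Cited1 295 and Pgr 24.6. With each cell placed by its marker scores these means were 122, 216 and 16.0 CPM. All 3 stayed below the levels of ER+ luminal-like cells.

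The members were then compared as shares of cells with at least 1 UMI, after each cell was thinned to 5000 UMIs so that depth was equal. In ER+ luminal-like cells Prlr was detected in 94.4% of 426 cells (exact 95% interval 91.7 to 96.4), Cited1 in 86.2%, Stat5a in 42.02%, Pgr in 36.2%, Esr1 in 18.1% and Greb1 in 3.05%. Tnfsf11 was in 0 of 426 thinned cells, which allows a share of cells with a UMI at this depth of up to 0.704% (3 counts of the total), and at full depth in 2 of 426 (0.469%). The intervals and this limit cover counting error only. Myeloid-like cells, a class outside the hormone-responsive epithelium, had a UMI of Prlr in 6.41%, Cited1 in 15.4%, Stat5a in 11.5%, and Pgr and Esr1 in 1.28% each. The Cited1 share of ER- luminal-like cells was 25.4% (39.5% of those from ducts and 4.26% of those from nipples), just above the interval of the myeloid-like share. The Cited1 shares of basal-like (19.7%) and fibroblast-like cells (16.3%) lie within the interval of the myeloid-like share (8.21 to 25.3), and the Esr1 share of fibroblast-like cells (8.73%) lies above the myeloid-like interval (0.0325 to 6.94). Unthinned, 51.2% of ER+ luminal-like cells had an Esr1 UMI at a median of 36259 UMIs per cell, and 2.56% of myeloid-like cells did at a median of 18966.

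**Figure D2:**
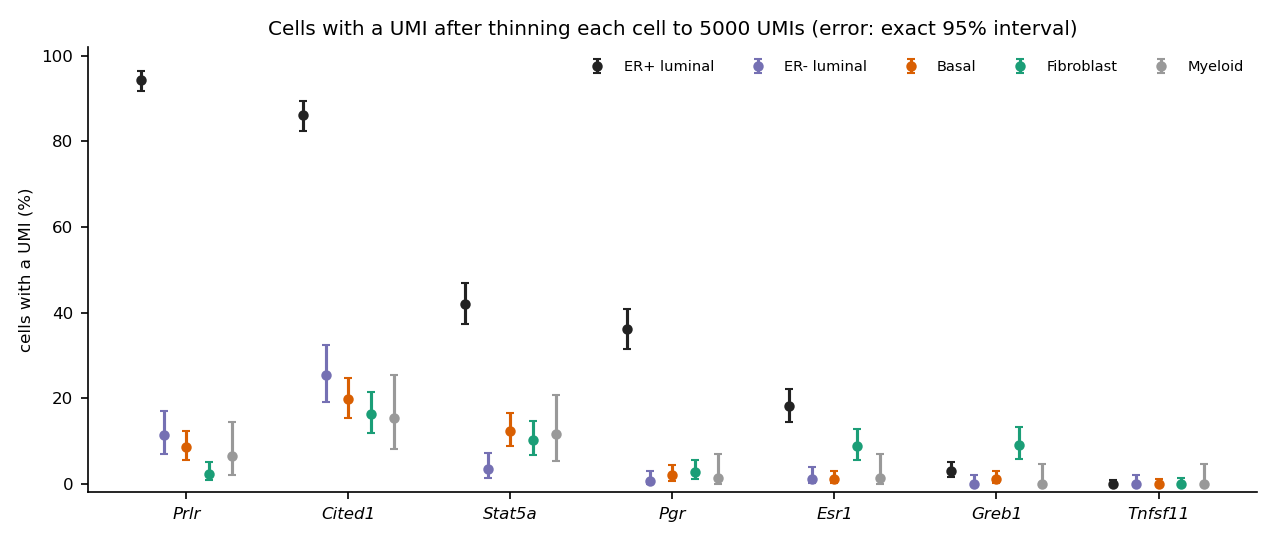
Share of cells (percent) with at least 1 UMI of each gene in 5 classes after thinning each cell to 5000 UMIs; points are shares and error bars exact 95% binomial intervals. In ER+ luminal-like cells Prlr is seen in 94.4% and Esr1 in 18.1% of cells, and Tnfsf11 is seen in none of the 426.

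Detection of Esr1, Pgr, Prlr and Cited1 was counted together within cells of the ER+ luminal-like class. Of the 426 thinned cells, 23 had a UMI of all of Esr1, Pgr, Prlr and Cited1, 147 had 3 of them, 213 had 2, 41 had 1 and 2 had none. Overlap also arises from the single shares alone, and the counts expected from those were not computed. Cited1 was seen in 81.8% of the 77 cells with an Esr1 UMI and in 87.1% of the 349 without. For Prlr these shares were 97.4% and 93.7%. Esr1 was seen in 19.5% of the 154 cells with a Pgr UMI and in 17.3% of the 272 cells without one, and the share was higher in cells with Pgr in 10 of 16 fragments. Stat5a was seen in 42.2% of cells with a Pgr UMI and in 41.9% of cells without. Greb1 was seen in 5.84% of cells with Pgr (9 of 154) and in 1.47% of cells without (4 of 272). This difference of a few cells was in the same direction in 6 of 16 fragments, of which only 8 held a thinned cell with a Greb1 UMI. At full depth 218 cells had an Esr1 UMI, against 77 after thinning, so that cells without a UMI cannot be read as cells without the receptor.

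A pair of clusters made up the ER+ luminal-like class, and Prlr differed between them. The larger, with 232 cells led by Sprr1a, Pcp4 and Ly6d, had a median of 26988 UMIs per cell, and the other, with 194 cells led by Krt4, had 47387. Over the 12 fragments with at least 5 cells of both, Prlr was at 1057 ± 205 CPM in the Sprr1a cluster and at 783 ± 122 in the Krt4 cluster. It was higher in the former in 10 of 12, which were all the ducts and TEBs compared. The exceptions were N21 (968 and 1059 CPM) and N23 (747 and 853 CPM), the only nipples with enough cells of both. Stat5a was at 160.3 ± 66.4 and 129 ± 36.1 CPM (higher in 8 of 12). Esr1 (54.3 ± 51.5 and 41.5 ± 27.9), Pgr (105 ± 51.4 and 121 ± 38.1) and Cited1 (1876 ± 715 and 1774 ± 417) differed by less than the spread between fragments. Prlr is itself among the 10 leading genes of the Sprr1a cluster, and the values are a description of clusters, with no test. Of the cells outside the named classes, 70 were in a cluster led by Birc5, Fabp4, Ube2c and Top2a. Cell cycle genes stood there beside Fabp4 and Gimap6, and the cluster took no class name. As a pool these cells had Cited1 at 1913 CPM, Prlr at 486, Pgr at 65.5, Stat5a at 62.05 and Esr1 at 14.9 CPM. Cited1 was seen in 68.6% of these cells and Prlr in 64.3%. By location, Prlr was seen in 13.3% of the 15 nipple cells, 72% of the 25 duct cells and 83.3% of the 30 TEB cells. The pooled values thus do not describe cycling cells alone.

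Whether the members differ between nipple, duct and TEB was tested within each class on UMI sums per fragment, with edgeR's quasi-likelihood test and Benjamini-Hochberg adjustment over all genes tested (called at an adjusted p under 0.05). In ER+ luminal-like cells 6 of the 7 members passed the filter on low counts and 1, Cited1, was called across the 3 locations, where 5.56% of the 8781 genes tested were called. Pair by pair, Cited1 was called between nipple and duct (background 2.0%), and no member was called between nipple and TEB (background 5.57%) or duct and TEB (background 1.64%). At an unadjusted p under 0.05 the counts were 4 across locations, 3 in nipple minus TEB, 3 in nipple minus duct and 1 in duct minus TEB, and DESeq2 called as many members as edgeR in each.

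Cited1 in ER+ luminal-like cells was highest in ducts. The 4 nipples had 1781 (N21), 1341 (N22), 1200.0 (N23) and 1259.7 CPM (N24). The 6 ducts ran from 1230.0 (D62) over a median of 2160.1 to 2559 CPM (D31), and the 6 TEBs from 1395 over 1694 to 1893 CPM. Ducts D31, D32, D51 and D61 lay above every other fragment, while D62 lay among the nipples, so that the groups overlap. The means were 1395 ± 263 in nipple, 2069 ± 509 in duct and 1665 ± 225 CPM in TEB, with an adjusted p of 0.041 across locations by edgeR. Nipple was lower than duct by a log2 difference of -0.60 (SE 0.16, 95% interval -0.92 to -0.28, adjusted p = 0.043), while duct minus TEB was 0.35 (SE 0.14, adjusted p = 0.29) and nipple minus TEB -0.25 (SE 0.16, adjusted p = 0.43).

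The Cited1 call lay close to the threshold. It was lost across locations without any 1 of D31, D32, D51, D61, N22, N23, N24, T31 or T32 (9 of 16 fragments), where the adjusted p was 0.051 to 0.096, and was kept without any of the other 7. The nipple minus duct difference stayed between -0.75 and -0.54 in all 16 of these fits, and its call was lost without any 1 of D31, D32, D51, D61, N22, N23, N24 or T32 (adjusted p 0.0503 to 0.0970). With RLE size factors the adjusted p across locations was 0.069.

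**Figure D3:**
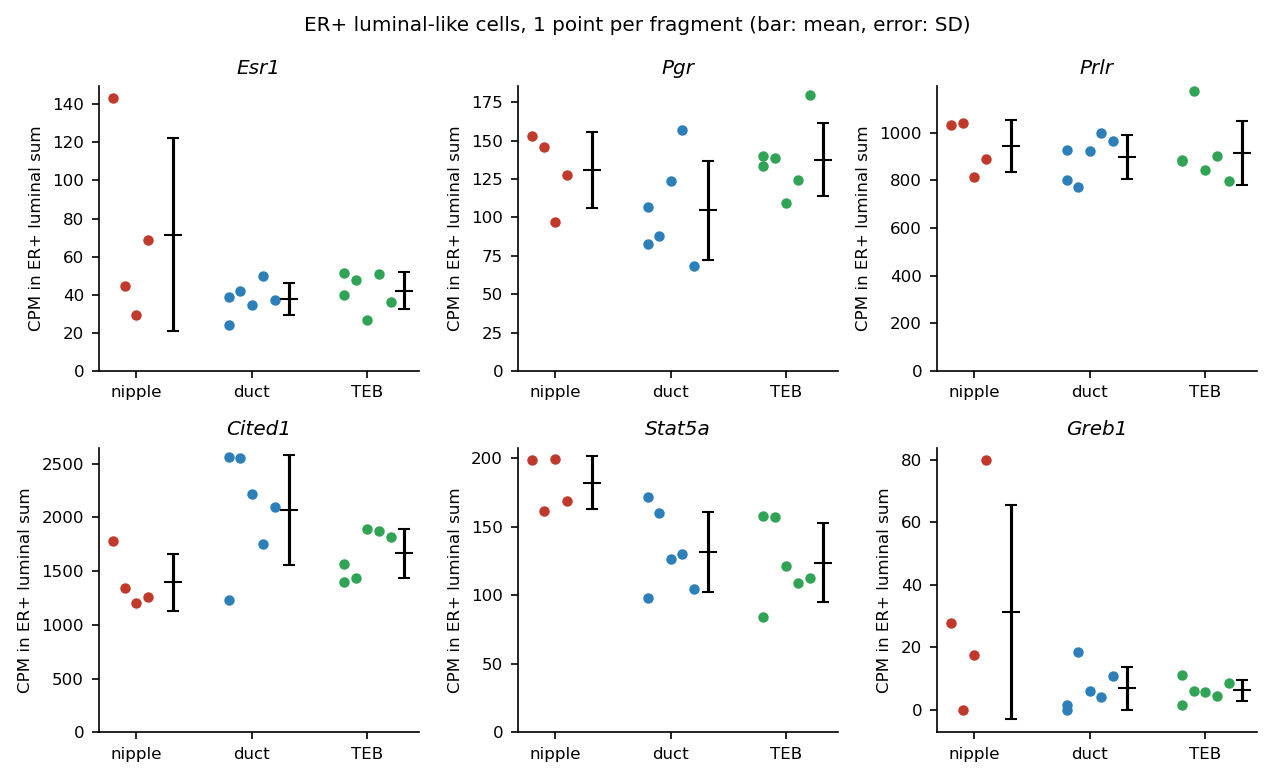
CPM of 6 genes in ER+ luminal-like cells by location, 1 point per fragment (4 nipples, 6 ducts, 6 TEBs), with the mean (bar) and SD (error bar) beside the points. Cited1 is higher in 4 of 6 ducts than in any other fragment, Prlr lies between 771 and 1176 CPM in all locations, and the high nipple means of Esr1 and Greb1 are set by N21 and N24.

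The receptors themselves were not called between locations in these cells. Prlr was at 944 ± 110.4 CPM in nipple, 897 ± 91.5 in duct and 914 ± 134 in TEB (adjusted p = 0.97), and the 95% intervals of its log2 differences were -0.20 to 0.32 for nipple minus TEB, -0.22 to 0.30 for nipple minus duct and -0.21 to 0.25 for duct minus TEB. As folds, the upper ends are 1.25, 1.23 and 1.19 times. Pooled by cluster, Prlr was at 811 CPM in 16 nipple cells, 1129 in duct and 1062 in TEB cells of the Sprr1a cluster. In the Krt4 cluster it was at 964 CPM in 27 nipple cells, 744 in duct and 744 in TEB cells. These cluster values were not tested, and the even class level does not speak for each cluster. Pgr was at 131 ± 24.8, 104 ± 32.2 and 138 ± 23.6 CPM (adjusted p = 0.59), with a wider interval of -0.78 to 0.07 for duct minus TEB.

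Esr1 had 143 (N21), 44.4 (N22), 29.5 (N23) and 68.6 CPM (N24) in nipples, 24.1 to 49.6 (median 38.1) in ducts and 26.9 to 51.5 (median 43.7) in TEBs. The nipple mean of 71.5 ± 50.6 CPM rests on N21, since the other groups had 37.7 ± 8.43 and 42.1 ± 9.67. The difference was not called (adjusted p = 0.27 across locations by edgeR), and without N21 the log2 difference of nipple minus duct was 0.30 in place of 0.89. Greb1 was at 27.6 (N21), 0 (N22), 17.3 (N23) and 79.7 CPM (N24) in nipples, 0 to 18.4 (median 5.10) in ducts and 1.46 to 11.1 (median 5.74) in TEBs. Nipple minus TEB was 2.37 on the log2 scale (SE 0.86, adjusted p = 0.10 by edgeR). Without N22, the nipple without a Greb1 UMI, Greb1 was called across locations (adjusted p = 0.047), and without N24 nipple minus TEB was 1.301 (adjusted p = 0.53).

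Stat5a had 199 (N21), 162 (N22), 199 (N23) and 169 CPM (N24) in nipples, 98.2 to 171 (median 128) in ducts and 84.4 to 157 (median 117) in TEBs. All 4 nipples lay above every TEB, and D31 alone of the ducts lay within their range. The means were 182 ± 19.7, 132 ± 29.2 and 124 ± 28.8 CPM, with an adjusted p of 0.25 across locations by edgeR, so that Stat5a was not called. Beside these nipple values stand markers of another class: the 8 fibroblast markers summed to 1682 CPM in nipple ER+ luminal-like cells against 304 in duct and 311 in TEB, with all 8 detected in each location. The nipple sums rest on 43 cells, against 211 and 172. Their part in the results was not tested. The estimate for RNA of other wells, which rests on the median cell, was 6.16 beside the 75 Greb1 UMIs in nipple and 5.25 beside the 152 Esr1 UMIs.

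Cited1 was also called in the other epithelial classes, at levels near or below those that shared RNA would give. In ER- luminal-like cells 2 members passed the filter and Cited1 was called across locations (background 4.10%) and between nipple and duct (background 1.63%), but not between nipple and TEB (4.57%) or duct and TEB (1.14%). It had 8.02, 4.17, 29.9 and 8.61 CPM in the 4 nipples, 8.74 to 199 (median 78.0) in ducts and 22.01 to 59.1 in the 4 TEBs with enough cells. D31 and D32 were highest, at 199 and 176 CPM, and D62 was as low as the nipples. Nipple minus duct was -2.75 on the log2 scale (SE 0.74, adjusted p = 0.049 by edgeR). The UMIs were 19 in nipple, 234 in duct and 75 in TEB, and RNA of other wells would give 29.9, 274 and 61.5. The call was lost without any 1 of D31, D32, D51, N21, N22, N24, T32, T33 or T34 (9 of 14 fragments; adjusted p 0.052 to 0.17), that of the pair without any 1 of D31, D32, D51, D52, N21, N22, N24 or T33 (0.052 to 0.15), and the call across locations also at a resolution of 1 (adjusted p = 0.79).

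In basal-like cells 3 members passed the filter and Cited1 was called across locations, where the background was 20.6%. The class is made of a pair of clusters that follow location: 115 of 115 duct and 96 of 97 nipple cells were in one and 81 of 82 TEB cells in the other. Between pairs it was called for nipple and duct (6.29%), and not for nipple and TEB (18.7%) or duct and TEB (10.4%). It had 18.9, 3.07, 34.4 and 3.58 CPM in nipples, 15.6 to 167 (median 75.8) in ducts and 19.8 to 109.8 (median 42.7) in TEBs. Nipple minus duct was -2.54 (SE 0.68, adjusted p = 0.018 by edgeR). The UMIs were 29, 217 and 187 against 50.6, 491 and 441 that RNA of other wells would give, so that the measured level was below the estimate in every location. Without D31, D32, N22 or N24 the adjusted p across locations was 0.055 to 0.058 and that of the pair 0.052 to 0.079. After thinning to 5000 UMIs Cited1 no longer passed the filter in these cells and was not tested. Prlr (adjusted p = 0.26) and Stat5a (adjusted p = 0.48) were not called in these cells.

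**Figure D4:**
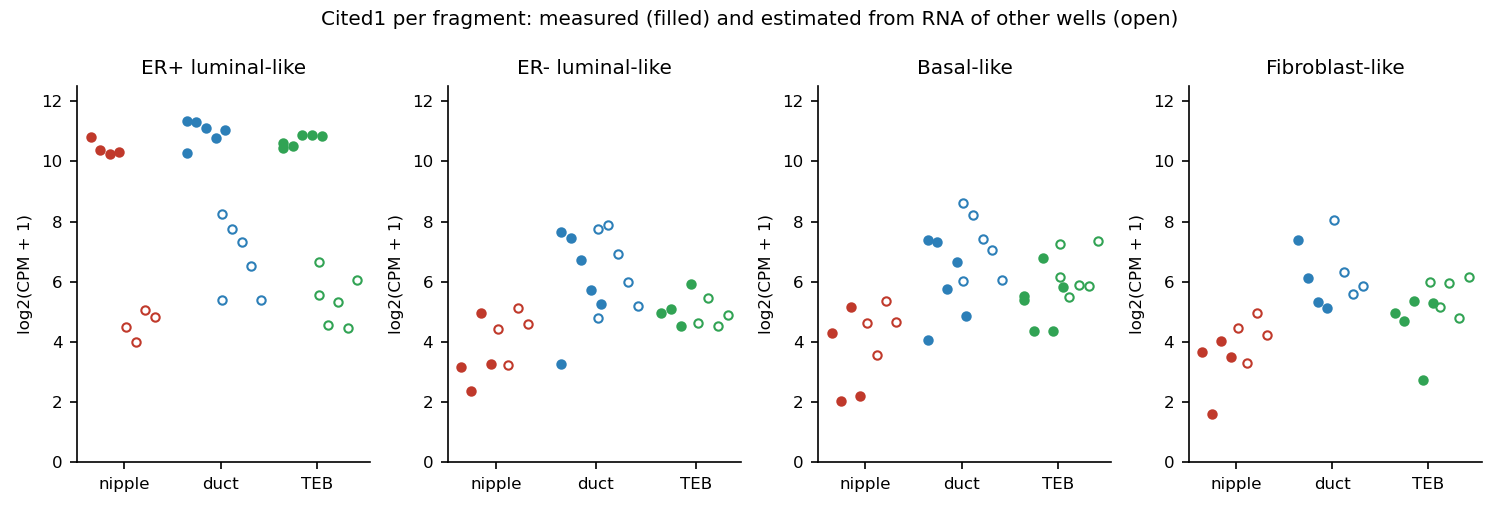
Cited1 per fragment as log2(CPM + 1) in 4 classes by location, measured (filled) and as estimated from RNA of other wells (open). In ER+ luminal-like cells the measured values lie far above the estimates, while in ER- luminal-like, basal-like and fibroblast-like cells both follow the same order of locations, with ducts highest.

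A difference between classes in how a member varied with location needs its own test, a class by location term in a model of both classes with the fragment as a block. Against basal-like cells this term is informative for Prlr, Cited1 and Stat5a, the 3 members that passed the filter in both classes, and 0 of these 3 were called (edgeR adjusted p = 0.28, 0.35 and 0.61; background 6.76%). Against ER- luminal-like cells it is informative for Prlr and Cited1, and neither was called (edgeR adjusted p = 0.98 and 0.54; background 1.85%). The other members did not pass the filter on low counts in the second class, so the term is not read for them. Among them, Stat5a against ER- luminal-like cells had an unadjusted p of 0.011 and an adjusted p of 0.23 by edgeR. A difference between classes in how Cited1 varied with location is thus not shown.

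In fibroblast-like cells the mean of Greb1 was highest in nipple, and no member was called. Of 5 members tested by edgeR 0 passed the threshold across locations, 2 had an unadjusted p under 0.05 (Cited1 and Greb1) and DESeq2 called 1, Cited1. The background was 1.70%. Greb1 had 67.0 (N21), 119 (N22), 54.2 (N23) and 24.7 CPM (N24) in nipples, 0, 37.8, 20.7 and 0 in the 4 ducts with enough cells, and 34.3, 7.76, 10.1, 0 and 0 in the 5 TEBs. The 3 highest values were those of nipples, and N24 lay among the others. The means were 66.3 ± 39.5, 14.6 ± 18.3 and 10.4 ± 14.1 CPM. Nipple minus TEB was 2.60 on the log2 scale (SE 0.91, 95% interval 0.72 to 4.49, adjusted p = 0.20 by edgeR). A Greb1 UMI was seen in 38 of 116 nipple fibroblast-like cells, 3 of 31 duct cells and 7 of 95 TEB cells.

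The fibroblast-like clusters were themselves unevenly spread over locations. Greb1 was at 48.1 CPM in a cluster led by Crabp1 and Penk, of which 86 of 87 cells were from nipples, and at 58.8 CPM in a cluster led by Scg3 and Apod. Within the latter it was at 109 CPM in 29 nipple cells, 28.3 in 28 duct cells and at 0 UMIs in 16 TEB cells. It was at 21.1 CPM in a cluster led by Pi16 and Dpp4, of which 64 of 68 cells were from TEBs, and at 0 UMIs in the 24 cells of a cluster led by F2r and Mmd. Esr1 had its highest level in the Pi16 cluster, at 45.8 CPM. At full depth Greb1 was seen in 20.97% of the 62 fibroblast-like cells with an Esr1 UMI and in 18.9% of the 190 without. Esr1 was at 36.3 ± 17.6 CPM in nipple, 14.9 ± 10.1 in duct and 31.6 ± 35.1 in TEB (adjusted p = 0.74), with 94.0 CPM in T33 and 8.57 to 19.4 in the other 4 TEBs.

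**Figure D5:**
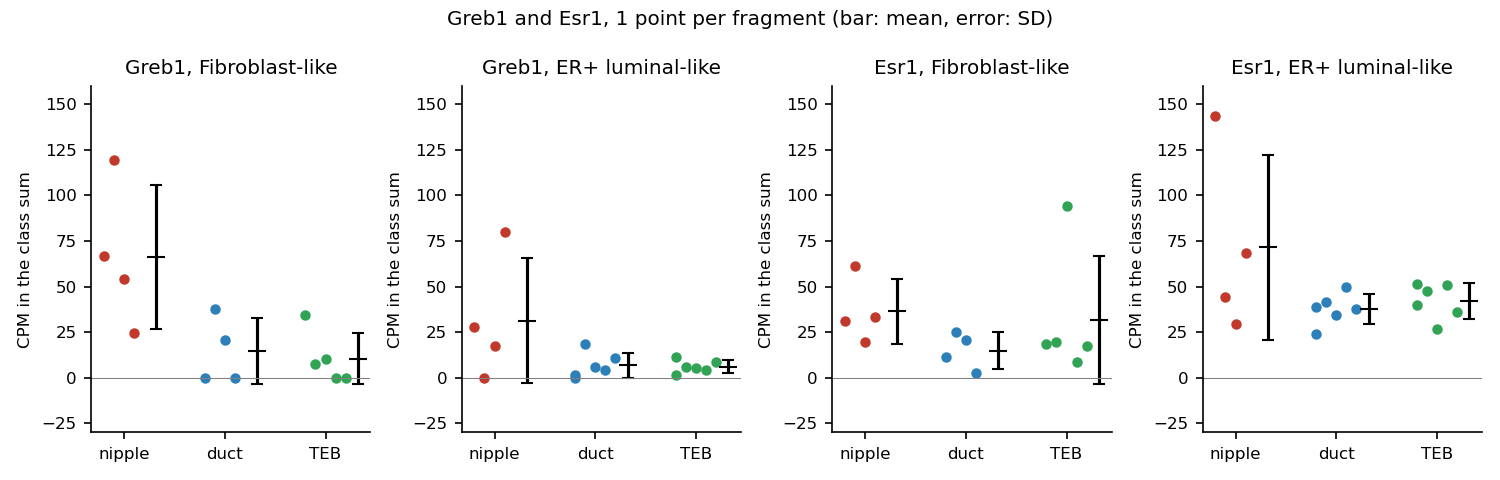
CPM of Greb1 and Esr1 in fibroblast-like and ER+ luminal-like cells by location, 1 point per fragment, with the mean (bar) and SD (error bar). Nipple fibroblast-like cells had Greb1 at 24.7 to 119 CPM, each above 3 of 4 ducts, and the ER+ luminal-like values are at most 18.4 CPM outside the nipples.

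Other genes of the pathway were read in ER+ luminal-like cells from 5 lists, where 5.56% of all genes tested were called across locations and 5.57% between nipple and TEB. The fibroblast markers that were higher in the nipple sums of these cells (1682 CPM against 304 in duct and 311 in TEB, over 43 nipple cells) stand beside every nipple value of the lists, and their part in them was not tested. Of the steroid and related nuclear receptors 0 of 7 tested were called across locations, and of the steroid receptor coregulators 0 of 15. The median log2 difference of nipple minus TEB was -0.02 and 0.13 in these lists, against -0.02 over all 8781 genes. Of 10 luminal transcription factors tested, 2 were called across locations, beside the 5.56% of all genes: Gata3, a regulator of luminal fate, at 222 ± 59.5 CPM in nipple, 232 ± 89.7 in duct and 451 ± 89.6 in TEB (adjusted p = 0.0034 by edgeR), and Hes1, a Notch target, at 1109.6 ± 341, 1552 ± 314 and 2152 ± 216 (adjusted p = 0.0011). Both were lower in nipple than in TEB, and Gata3 was also lower in duct than in TEB.

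Of the estrogen and progesterone targets, whose products are not all secreted signals, 3 of 7 tested were called across locations (5.56% of all genes). All 3 were higher in nipple than in TEB (230 of all 8781 genes were). Ctsd, which encodes the lysosomal protease cathepsin D, was at 1616 ± 330.0 CPM in nipple, 1159.7 ± 121 in duct and 845 ± 158 in TEB (adjusted p = 9.0e-05 by edgeR). Areg was at 2847 ± 252, 2342 ± 166 and 2145 ± 339 CPM (adjusted p = 0.044). Id2, which encodes an inhibitor of helix-loop-helix factors, was at 479 ± 224, 192 ± 66.8 and 108 ± 61.8 CPM (adjusted p = 0.012). The median nipple minus TEB difference of this list was 0.42.

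Of the prolactin, JAK2 and STAT5 genes 3 of 13 tested were called across locations (5.56% of all genes), and they did not share a direction. Socs2, a feedback inhibitor of cytokine signaling, was at 90.4 ± 47.2 CPM in nipple, 43.1 ± 13.4 in duct and 32.2 ± 12.0 in TEB (adjusted p = 0.029 by edgeR). Socs3, an inhibitor of the same family, was at 127 ± 94.8, 50.8 ± 11.3 and 162 ± 71.3 CPM (adjusted p = 0.0049). Ptpn1, a tyrosine phosphatase, was at 114 ± 40.7, 210.4 ± 37.7 and 199.7 ± 58.6 CPM (adjusted p = 0.038), lower in nipple than in both other locations.

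The genes most like each member were taken by Pearson's r of log2 CPM (prior count 2) over 15 pools, 1 for each class and location. These r describe 15 points that share libraries and classes, and carry no p. Cited1 was most like Areg (r = 0.98), Fam25c and Gm9513, and Prlr most like Capn8 (r = 0.97), Prom1 and Areg. Pgr followed Snhg11 (r = 0.95), Mum1l1 and Msx2, and Stat5a followed Slc44a4 (r = 0.89), Trex2 and Gm757. Esr1 was closest to Tnfrsf23 (r = 0.91), Sgsm1 and Cd164, and Greb1 to Gadd45g (r = 0.90), C1qtnf6 and Slc35g2. Among the members, Prlr and Cited1 were the most alike (r = 0.94), and Greb1 was least like Prlr (r = 0.27) and Cited1 (r = 0.27) and most like Esr1 (r = 0.75). Areg and Prom1 are among the markers that named the ER+ luminal-like class. Over the 16 ER+ luminal-like sums, where the class is held fixed, the closest genes were Scrib, Bcas3 and Cltc for Esr1 (highest r = 0.82), Fopnl, Lmbr1 and Papola for Pgr (0.85), Thumpd1, Atf1 and Slc35a2 for Prlr (0.73), Cd63, Dbf4 and Gnb1 for Cited1 (0.82), Blcap, Zmynd11 and Mrpl55 for Greb1 (0.79) and Prom2, Ier2 and Serinc3 for Stat5a (0.82). None of these is among the 3 closest genes of the same member over the 15 pools. As the highest r among all genes tested, over 16 points, these values also carry no p. A tie of these genes to the members is not shown.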

How the data were processed

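The authors extracted UMIs with UMI-tools, trimmed reads with Trim Galore, aligned unique reads to mm10 with STAR and counted with featureCounts. They deposited raw UMI counts of sorted single cells, with no scaling; the annotation and versions are not given in the sources used here. Cells with over 5% of UMIs from 67 ERCC spike-ins (0.758% of all UMIs), under 5000 or over 120000 UMIs, or outside 200 to 6000 genes were left out.

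Seurat 5.3.0 in R 4.3.3 clustered log-normalized counts (2000 variable genes, 14 principal components, resolution 0.5), with the spike-in share, cycle scores and genes per cell regressed out. A cluster took the class with the highest mean marker score if at least 3 of its markers were each seen in 0.1 of the cells, a minimum set once clusters had been inspected. Doublets were not called.

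Sums of UMIs for each class in a fragment (5 or more cells) went into edgeR 4.0.16 with TMM factors, filterByExpr and the robust quasi-likelihood test, all locations in 1 model. Sums held 89639 to 2061534 UMIs in the 4 tested classes. The test was checked on simulated counts. The share of UMIs from other wells was the median over cells of the share of fibroblast and myeloid markers (in fibroblast-like and myeloid-like cells, of Krt8, Krt18, Krt19, Epcam, Cldn4 and Cldn7), divided by their share in the whole fragment. Since some of this can be a cell's own RNA, it is an estimate.

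Named genes were the 7 members, the called genes of each list in ER+ luminal-like cells (at most 5) and the 3 genes most like each member with at least 50 UMIs. Members, lists and tests were chosen with earlier results of these data known. Alternatives covered cell limits, clustering, thinning, normalization, filters, DESeq2 1.42.0, cell minimums, a block and single fragments.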

Additional observations from a re-analysis of the deposited data

Results flagged for a closer look

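In 4 of 48 groups of 4 to 6 fragments, 1 fragment stood far from the others of its location; chance alone flags about 1 in 20 groups. Prlr in ER+ luminal-like cells was at 1176 CPM in T32, where the other TEBs had 795 to 901. Prlr in basal-like cells was at 20.3 CPM in T43, where the other TEBs had 3.31 to 8.26, and in each of the 6 TEBs its UMIs were below those that RNA of other wells would give. Esr1 in fibroblast-like cells was at 94.0 CPM in T33, where the other TEBs had 8.57 to 19.4. Stat5a in fibroblast-like cells was at 56.2 CPM in T32, where the other TEBs had 2.86 to 17.2. None of these members was called between locations in its class.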

How the results depend on the processing

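No setting tried reversed the direction of a called difference. Differences that were not called changed sign in some settings, such as that of Prlr in the ER+ luminal-like class, nipple minus duct (-0.12 to 0.08). In ER+ luminal-like cells 1 member was called across locations and 1 member pair in the reported fit; with RLE size factors both counts were 0, with only the 2 locations compared the pair count was 0, and with cells thinned to 5000 UMIs it was 2, both Cited1. With fragments of at least 10 cells both counts stayed at 1, but the gene was Greb1 (adjusted p = 0.047) and not Cited1 (adjusted p = 0.065). This setting leaves out N22 (8 cells) alone, so it is the fit without N22 given above and not a separate result. In ER- luminal-like cells the counts of 1 across locations and 1 pair both fell to 0 with the looser spike-in limit (10%), the higher minimum of UMIs per cell, finer clusters (resolution 1), unregressed scaling and thinned cells; the pair count was also 0 with RLE size factors and with only the 2 locations compared. In basal-like cells thinning left 0 and 0. In fibroblast-like cells DESeq2 called Cited1 (1 across locations, adjusted p = 0.0067, and 1 pair) where edgeR called 0. Leaving out 1 fragment at a time gave 0 to 1 members across locations in the 3 epithelial classes, 0 to 2 member pairs among basal-like cells, 0 to 2 for the ER+ and 0 to 1 for the ER- luminal-like class; the fragments that end a call of Cited1 are named beside it. The cause of these changes was not tested.

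Fragments D31 and T31, and D32 and T32, share a number, and nothing in the labels says that it marks a mouse or a day. Their deviations from the location means correlated at r = -0.014 and -0.0059 over 8781 genes. With this number as a replicate block, only these 4 fragments inform duct minus TEB, and hardly any are left to estimate the spread. In this fit 1 member, Cited1, was called in ER+ luminal-like cells (0.82 on the log2 scale) and 1, Cited1, in basal-like cells (2.54), against 0 without the block. These calls are therefore weak beside the fit without the block. In ER- luminal-like and fibroblast-like cells the block could not be fitted. Among levels, those of ER- luminal-like cells moved by more than 1 SD. At a resolution of 1 mean CPM there were 178 for Prlr, 295 for Cited1, 24.6 for Pgr, 39.2 for Stat5a and 3.72 for Greb1, and with classes from marker scores 122 for Prlr, 216 for Cited1, 16.0 for Pgr and 31.5 for Stat5a. The share of ER+ luminal-like cells with at least 3 of Esr1, Pgr, Prlr and Cited1 was 39.0% after thinning and 79.8% at full depth, an alternative chosen after seeing the data, as was leaving out the cell with the most UMIs of a member in each fragment. Without those cells Cited1 kept its call in ER+ luminal-like cells (adjusted p = 0.025).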
